A study of Mus musculus with 21 samples.

Results

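The 7 genes studied encode parts of the ion pumps that hold sodium and calcium gradients across membranes, and they were measured in whole-brain RNA of SAMP8 mice. They were taken by name as Atp1b1, Atp1b2, Atp2a2, Atp2b1, Atp2b2, Atp2b3 and Atp2b4, and all 7 were found among the 16318 genes with deposited counts and passed the filter on low counts. SAMP8 is an inbred, senescence-accelerated mouse line studied as a model of sporadic Alzheimer's disease. The mice received subcutaneous injections on alternate days for 8 weeks and were 6 months old when the brains were taken, after perfusion with PBS. In one group (n = 9, 3 females and 6 males) the injection was HsTX1[R14A] at 1 mg/kg, a peptide that blocks the potassium channel Kv1.3, and in the other (n = 12, 6 females and 6 males) it was the PBS vehicle. No mouse of another strain and no untreated mouse was among the 21, so both groups share the SAMP8 background and the injections.

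The sodium pump, Na+/K+-ATPase, exports sodium and imports potassium at the cost of ATP, and a beta subunit is needed for its catalytic alpha subunit to fold and reach the cell surface. Atp1b1 encodes the beta subunit found mainly in neurons, and Atp1b2 encodes a beta subunit of glia and some neurons that was also described as the adhesion molecule on glia. Calcium is cleared from the cytosol by 2 kinds of pump. Atp2a2 encodes SERCA2, which refills the endoplasmic reticulum, and the Atp2b genes encode the plasma membrane calcium ATPases (PMCA), which expel calcium from the cell and are activated by calmodulin. Atp2b1 is the broadly expressed PMCA, Atp2b2 is a fast PMCA known from Purkinje cells and cochlear hair cells, Atp2b3 is found largely in neurons, and Atp2b4 is again broadly expressed.

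On GRCm38, Atp1b1 (ENSMUSG00000026576) lies on chromosome 1 at 164437109-164458355, Atp1b2 (ENSMUSG00000041329) on chromosome 11 at 69599736-69605942 and Atp2a2 (ENSMUSG00000029467) on chromosome 5 at 122453513-122502225, all on the minus strand. Of the PMCA genes, Atp2b1 (ENSMUSG00000019943) lies on chromosome 10 at 98914406-99026143 on the plus strand, Atp2b2 (ENSMUSG00000030302) on chromosome 6 at 113743831-114042613 on the minus strand, Atp2b3 (ENSMUSG00000031376) on chromosome X at 73503086-73571005 on the plus strand and Atp2b4 (ENSMUSG00000026463) on chromosome 1 at 133699457-133801041 on the minus strand. All are protein coding. Their longest annotated transcripts ran from 2580 bases for Atp1b1 to 11725 bases for Atp2b4. The exons of Atp1b1 overlap those of Nme7, which runs on the opposite strand, by 575 bases. Whether reads were counted by strand is not given in the sources used here, so reads of Atp1b1 and Nme7 in this stretch cannot be told apart.

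Start regions were taken from RefSeq on GRCm38.p6, which gave windows for 4 of the 7 genes (Atp1b1, Atp2b1, Atp2b2 and Atp2b4). Where RefSeq gives more than 1 start, as for Atp2b1 and Atp2b2, 1 is printed. The 4 genes differed in how far they varied between mice, as described below, with Atp1b1 the least variable. Any link between the start regions and this variation was not tested. The windows end at the base before the start, are written 5′ to 3′ on the strand of the gene, leave out bases inside annotated exons, and have the GC box (GGGCGG, searched on both strands, so that CCGCCC also counts) in capitals.

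Atp1b1, chr1:164458356-164458505, minus strand: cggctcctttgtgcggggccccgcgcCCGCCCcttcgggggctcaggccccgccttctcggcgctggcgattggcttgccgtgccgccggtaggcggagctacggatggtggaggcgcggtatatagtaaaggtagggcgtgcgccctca

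Atp2b1, chr10:98915002-98915151, plus strand: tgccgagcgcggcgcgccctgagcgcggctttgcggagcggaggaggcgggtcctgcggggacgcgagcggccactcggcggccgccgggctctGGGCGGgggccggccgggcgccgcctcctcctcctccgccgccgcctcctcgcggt

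Atp2b2, chr6:114042081-114042192, minus strand: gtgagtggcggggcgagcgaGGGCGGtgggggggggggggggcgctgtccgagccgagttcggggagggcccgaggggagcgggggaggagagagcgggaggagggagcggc

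Each of these 3 stretches held 1 GC box. Over 150 bases these windows had a GC content of 71.3% for Atp1b1, 83.3% for Atp2b1 and 75.3% for Atp2b2, against a median of 54% over 32851 windows of the same length, 28.6% of which held a GC box. The windows not printed differed. The other Atp2b1 window had 81.3% GC and 3 GC boxes. The other Atp2b2 windows had 44.0% with no GC box and 59.3% with 1, and the Atp2b4 window had 44.7% with none. No window of the 4 genes held TATAAA (7.57% of all windows), CACGTG (4.3%) or TGACG (13.3%) on either strand. The window of Atp2b4 lies inside the gene, next to an internal exon, and is not printed. The windows of Atp2b1 and Atp2b2 also lie within the gene spans given above, and only that of Atp1b1 lies outside its gene. These matches describe the letters in the windows only.

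Total counts were 14917174 to 36207554 per PBS mouse and 17552413 to 47613792 per HsTX1[R14A] mouse. Levels are given as CPM (each count as a share of the scaled library total, set to a common library size) after TMM scaling, and every pump gene reached at least 12.3 CPM in every mouse, so that differences among mice rather than read sampling set the precision. The library names came in 2 forms, one used for 10 PBS and 5 HsTX1[R14A] mice (SAMP8 form) and the other for 2 PBS and 4 HsTX1[R14A] mice (SAMP form). The libraries also differed in how counts depended on transcript length. The slope of log2 CPM on log2 length of the longest transcript, each gene centred on its mean over mice, was -0.08 ± 0.16 (SD, n = 12) in PBS and 0.10 ± 0.12 (SD, n = 9) in HsTX1[R14A] libraries, with a range of -0.38 to 0.23 in all. Markers of neurons summed to 6192 to 10077 CPM per mouse, those of astrocytes to 3331 to 5038 CPM and those of oligodendrocytes to 3315 to 6728 CPM, while markers of skeletal muscle summed to 5.07 to 10.9 CPM.

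The main comparison asked which pump genes differed between HsTX1[R14A] and PBS mice. In all, 4 pump genes were higher in HsTX1[R14A] mice, namely the beta subunit gene Atp1b2, the SERCA gene Atp2a2 and the PMCA genes Atp2b3 and Atp2b4, and none was lower. Of all 16303 genes tested, 15.5% were called higher and 16.1% lower, so calls were common in this comparison. The median log2 fold change of the 7 genes was 0.44, and that of all genes tested was -0.01. Each test was edgeR's quasi-likelihood test with sex in the model, with p-values adjusted over all genes by Benjamini and Hochberg's method and a threshold of 0.05. In bulk tissue, fewer cells of a type and less RNA per cell cannot be told apart.

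**Figure D1:**
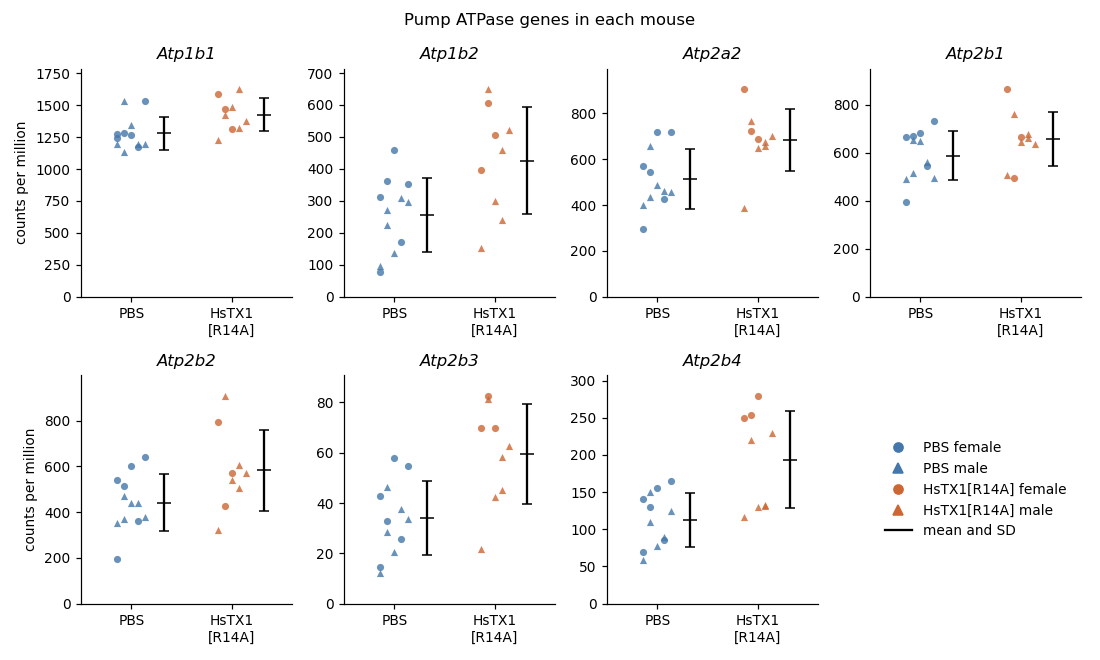
Level in CPM of the 7 pump genes in each of 21 mice (PBS in blue, HsTX1[R14A] in orange, circles for females and triangles for males, black bars for the mean and SD). The groups overlap in every gene, and in Atp2b3 6 of the 9 HsTX1[R14A] mice lie above the highest PBS mouse.

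Among the sodium pump genes, Atp1b1 was the most abundant and the least variable. It ran from 1134 to 1533 CPM in PBS mice with a median of 1256 CPM, and from 1230 to 1624 CPM in HsTX1[R14A] mice with a median of 1425 CPM. The PBS median was exceeded by 8 of the 9 treated mice, but only 2 were above every PBS mouse. The means were 1280 ± 130 CPM (SD, n = 12) and 1426 ± 131 CPM (SD, n = 9), and the log2 fold change of 0.16 ± 0.071 (SE) did not pass the test (edgeR adjusted p = 0.0817, 95% interval without adjustment 0.01 to 0.31). It did pass when PBS mouse 102, PBS mouse 104 or treated mouse 93 was left out (edgeR adjusted p from 0.0293, log2 fold change up to 0.20). It also passed with DESeq2 (0.17, adjusted p = 0.0332), with sample quality weights (0.17, adjusted p = 0.0395) and with the length and GC trend removed (0.25, adjusted p = 0.0355). Mice 102 and 104 were the 2 PBS mice of the SAMP name form. The 6 mice of that form lay between 1425 and 1624 CPM, and the 15 of the SAMP8 form between 1134 and 1469 CPM. Atp1b1 did not pass within either name form or with the name form as covariate.

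Atp1b2 showed a far wider range. PBS mice lay between 79.0 and 458 CPM with a median of 284 CPM, and HsTX1[R14A] mice between 152 and 649 CPM with a median of 459 CPM. Of the treated mice, 5 exceeded every PBS mouse, while mouse 93 of that group was below most of them. The means of 256 ± 116 CPM (SD, n = 12) and 425 ± 168 CPM (SD, n = 9) differed by 0.80 ± 0.28 (SE) on the log2 scale (edgeR adjusted p = 0.0393). This call was lost in 10 of the 21 fits that left out 1 mouse (PBS mice 73, 90, 91 and 101, treated mice 71, 72, 74, 81, 88 and 98), where adjusted p reached 0.0813 and the log2 fold change stayed between 0.68 and 0.89 in all 21.

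Atp2a2, the SERCA gene, ran from 294 to 720 CPM in PBS mice with a median of 473 CPM, and from 386 to 905 CPM in HsTX1[R14A] mice with a median of 686 CPM. In the treated group 8 of 9 mice lay between 649 and 905 CPM and only mouse 93 was lower. The means were 514 ± 132 CPM (SD, n = 12) and 683 ± 136 CPM (SD, n = 9), a log2 fold change of 0.44 ± 0.14 (SE; edgeR adjusted p = 0.0293). The call was lost when mouse 90 of the PBS group or mouse 81 or 98 of the treated group was left out, with log2 fold changes of 0.42, 0.41 and 0.39 (edgeR adjusted p = 0.0565, 0.0535 and 0.0644).

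The 4 PMCA genes split into 2 that did not pass and 2 that did. Atp2b1 ran from 396 to 730 CPM in PBS mice with a median of 605 CPM, and from 496 to 864 CPM in HsTX1[R14A] mice with a median of 662 CPM. Only 2 HsTX1[R14A] mice were above all PBS mice. The means of 588 ± 101 CPM (SD, n = 12) and 656 ± 113 CPM (SD, n = 9) gave a log2 fold change of 0.18 ± 0.11 (SE; edgeR adjusted p = 0.211), with a 95% interval of -0.06 to 0.41. Without treated mouse 98 it was 0.10 (adjusted p = 0.483).

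Atp2b2 ran from 194 to 643 CPM in PBS mice with a median of 439 CPM, and from 320 to 907 CPM in HsTX1[R14A] mice with a median of 570 CPM. Mouse 81 at 907 CPM and mouse 98 at 796 CPM stood above the PBS mice, and the other 7 HsTX1[R14A] mice lay within their range. The means were 442 ± 123 CPM (SD, n = 12) and 583 ± 177 CPM (SD, n = 9), a log2 fold change of 0.43 ± 0.19 (SE) that did not pass (edgeR adjusted p = 0.0772, 95% interval without adjustment 0.04 to 0.82). Leaving out HsTX1[R14A] mouse 93 brought it past the threshold (adjusted p = 0.0324).

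Atp2b3, the least abundant pump gene, ran from 12.3 to 58.1 CPM in PBS mice with a median of 33.2 CPM, and from 21.7 to 82.5 CPM in HsTX1[R14A] mice with a median of 62.8 CPM. The highest PBS mouse was exceeded by 6 of the 9 treated mice. The means of 34.0 ± 14.7 CPM (SD, n = 12) and 59.4 ± 19.9 CPM (SD, n = 9) differed by 0.86 ± 0.25 (SE) on the log2 scale, the largest difference of the 7 (edgeR adjusted p = 0.0206).

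Atp2b4 had the smallest p-value. PBS mice ran from 58.8 to 165 CPM with a median of 117 CPM, and HsTX1[R14A] mice from 117 to 279 CPM with a median of 220 CPM. The HsTX1[R14A] mice fell into a higher set of 5, all above the PBS mice, and a lower set of 4 males between 117 and 133 CPM. The means were 113 ± 36.2 CPM (SD, n = 12) and 194 ± 64.8 CPM (SD, n = 9), a log2 fold change of 0.82 ± 0.18 (SE; edgeR adjusted p = 0.0151). Atp2b3 and Atp2b4 passed in all 21 fits that left out 1 mouse.

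The count of pump genes called higher depended on single mice and on the covariates. It was 2 when mouse 90 (PBS), 81 or 98 (both HsTX1[R14A]) was left out, and 6 when treated mouse 93 was left out. The count over all genes moved with it, from 2289 without PBS mouse 90 to 6614 without HsTX1[R14A] mouse 93. Within the 15 mice of the SAMP8 name form the log2 fold changes were 0.13 for Atp1b1, 0.91 for Atp1b2, 0.41 for Atp2a2, 0.07 for Atp2b1, 0.26 for Atp2b2, 0.97 for Atp2b3 and 0.98 for Atp2b4, all higher in HsTX1[R14A] mice, and none passed (lowest adjusted p = 0.0563, for Atp2b4). Within the 6 mice of the SAMP form, with 2 PBS mice, they were 0.01, 0.40, 0.18, 0.15, 0.40, 0.31 and 0.29 in the same order, and none passed. No gene of the whole table passed in either of these fits.

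With the length slope of each library in the model, no pump gene and no gene of the whole table passed. Atp2b4 had the largest difference in this fit, 0.30 on the log2 scale against 0.82 without the slope (edgeR adjusted p = 0.336), and Atp1b1 was at 0.10, Atp2b3 at 0.07 and Atp2a2 at 0.03. Atp1b2 was at -0.12, Atp2b2 at -0.11 and Atp2b1 at -0.07. The slope differs between the treatment groups, so a treatment difference and the length trend of the libraries cannot be fully told apart in these data.

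**Figure D2:**
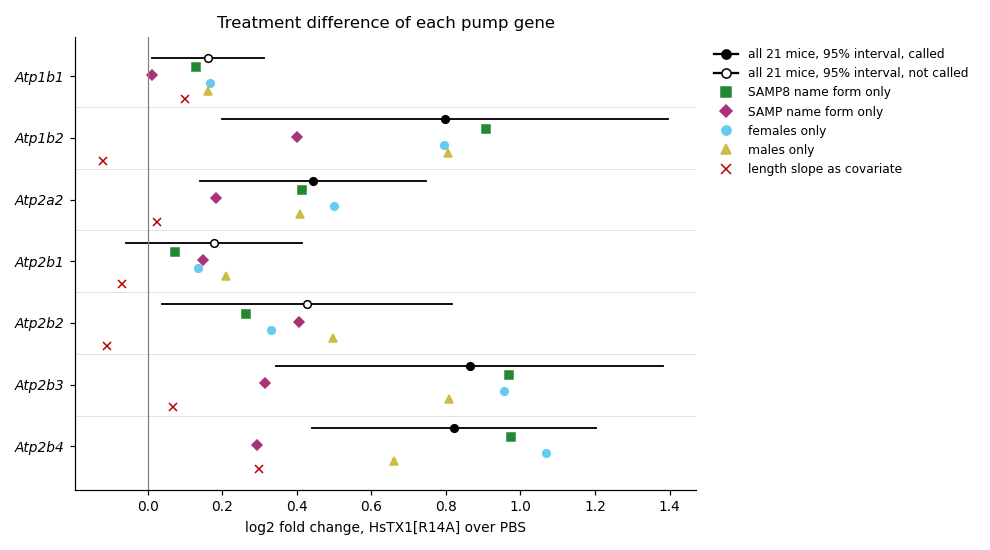
Difference between HsTX1[R14A] and PBS mice (log2 scale) for each pump gene in all 21 mice (black, 95% interval without adjustment, filled where the adjusted p passed 0.05) and in other fits (coloured symbols). All 7 genes lie above 0 in the fit of all mice, in each name form and in each sex. With the length slope as covariate Atp2b4 lies at 0.30, and Atp1b1 lies above 0 but lower than in the fit of all mice. The other genes then lie close to or below 0.

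The relation of each gene to the length slope was also measured among the 12 PBS mice, where treatment plays no part. Over 7 genes tested, Atp1b2 followed the slope most closely (Pearson r = 0.975, permutation p = 1e-05, the smallest that 100000 resamples can give, adjusted p = 3.5e-05; Spearman rho = 0.881, adjusted p = 0.00063). Atp2b3 (r = 0.966, rho = 0.951), Atp2b4 (r = 0.919, rho = 0.944), Atp2a2 (r = 0.868, rho = 0.881) and Atp2b2 (r = 0.859, rho = 0.867) followed, with permutation p-values of r adjusted over the 7 of 3.5e-05, 7e-05, 0.00021 and 0.00021. Atp2b1 was lower (r = 0.774, adjusted permutation p = 0.00327; rho = 0.783) and fell to r = 0.478 once the 2 libraries with slopes farthest from the median were removed, so its relation rests on them. Without those 2 libraries r was 0.928 for Atp1b2, 0.932 for Atp2b3, 0.87 for Atp2b4, 0.764 for Atp2a2 and 0.761 for Atp2b2. Atp1b1 showed no such relation that passed (r = 0.335, permutation p = 0.288; rho = 0.455, permutation p = 0.14; r = 0.293 without the 2 libraries). Among the 10 PBS mice of the SAMP8 name form r was 0.16 for Atp1b1 and 0.749 to 0.979 for the other 6. The genes with the steepest relation were not the longest, since Atp1b2 has a longest transcript of 3751 bases and Atp2b4 one of 11725 bases.

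**Figure D3:**
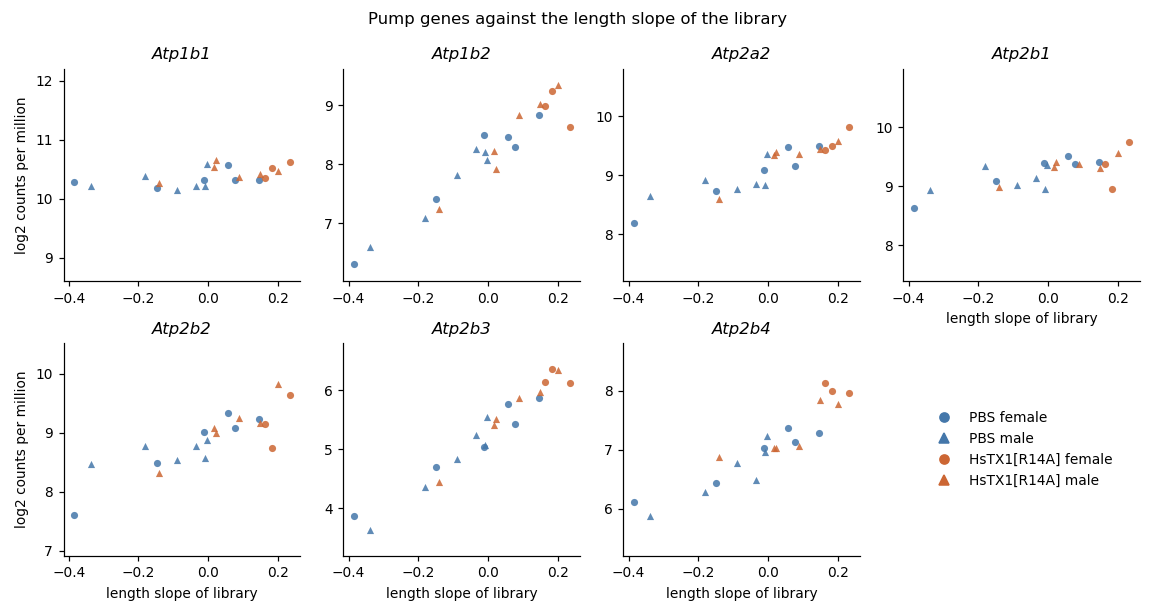
Log2 CPM of each pump gene (each panel spans the same 3.6 log2 units) against the length slope of the library, 1 point per mouse, with PBS in blue and HsTX1[R14A] in orange. Atp1b2 and Atp2b3 rise along the slope in both groups, while Atp1b1 stays nearly level.

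Some markers of brain cell types were also called between the groups, against the 15.5% higher and 16.1% lower over all genes. Of the marker lists, 3 of 8 neuron markers were called higher, as were 3 of 7 endothelial markers, and 4 of 8 astrocyte markers, 4 of 8 oligodendrocyte markers and 3 of 8 microglia markers were called lower, with none in the other direction. None was called among the markers of smooth muscle and pericytes (6), choroid plexus (8), striatal projection neurons (8), cerebellar granule cells (6), Purkinje cells (5), red blood cells (5) and skeletal muscle (3). The summed level of the neuron markers was 6192 to 8745 CPM in PBS and 7182 to 10077 CPM in HsTX1[R14A] mice, that of the oligodendrocyte markers 4396 to 6728 and 3315 to 4907 CPM, that of the astrocyte markers 3331 to 4986 and 3339 to 5038 CPM, that of the microglia markers 377 to 561 and 319 to 483 CPM and that of the endothelial markers 102 to 170 and 108 to 199 CPM. No marker of the lists with calls was at 0 in any mouse. Their part in the differences of the pump genes was not tested.

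The cerebellum is of interest for Atp2b2, and cerebellar granule cell markers summed to 571 CPM in HsTX1[R14A] mouse 74 against 33.5 to 190 CPM in the other 20 mice. Purkinje cell markers were also highest in this mouse, at 1169 CPM against 453 to 865 CPM in the others. In PBS mice both sums rested on few genes. Zic1 (mean 70.1 CPM) made up most of the granule cell sum there, with Gabra6 at 1.70, Cbln3 at 2.10 and Fat2 at 0.687 CPM. Itpr1 (475 CPM) and Calb1 (179 CPM) made up most of the Purkinje cell sum, with Pcp2 at 0.840 CPM. In HsTX1[R14A] mice Zic1 was at 64.7, Itpr1 at 580 and Calb1 at 159 CPM. In that group Gabra6 was at 10.8 ± 29.7 CPM (SD, n = 9) and Cbln3 at 15.5 ± 42.2 CPM. Fat2 was at 6.34 ± 16.85 CPM and Pcp2 at 4.82 ± 12.8 CPM. The SD of these scarce markers exceeded the mean in both groups, so they were spread unevenly among mice. How much cerebellum each sample held was not tested. No marker of either list was called. Without mouse 74 the log2 fold change was 0.42 for Atp2b2 (edgeR adjusted p = 0.109), 0.85 for Atp2b3 (adjusted p = 0.0341) and 0.86 for Atp2b4 (adjusted p = 0.0267). Atp1b2 no longer passed (0.77, adjusted p = 0.0616).

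Mouse 71 of the HsTX1[R14A] group stood apart in other markers. Its striatal projection neuron markers summed to 473 CPM against 884 to 1970 CPM in the other 20 mice, and it had the highest shares of Atp2b3 (11.3%) and Atp2b4 (13.8%) in the composition described next. Without it Atp2b3 was at 0.82 (edgeR adjusted p = 0.0398) and Atp2b4 at 0.80 (adjusted p = 0.0335). The part of these markers in the differences was not tested.

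Ratios within a library do not depend on its total, and they showed a shift in makeup among the PMCA genes. Scaled by transcript length and summed over the 4 Atp2b genes, Atp2b1 made up 55.9% ± 3.98 (SD, n = 12) in PBS and 49.8% ± 4.89 (SD, n = 9) in HsTX1[R14A] mice, with ranges of 50.6% to 64.2% and 43.5% to 58.5%. The PBS median of 55.0% was above 8 of the 9 treated mice, and the sex-adjusted difference was -6.48 percentage points (exact permutation test of labels within sex, two-sided, p = 0.0034, adjusted over 6 values p = 0.00794).

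Atp2b3 and Atp2b4 made up more of the sum in HsTX1[R14A] mice. The share of Atp2b3 was 4.75% ± 1.32 (SD, n = 12) and 6.80% ± 2.07 (SD, n = 9), a difference of 2.25 points, with 8 of 9 HsTX1[R14A] mice above the PBS median (exact permutation test, adjusted p = 0.00794). The share of Atp2b4 was 6.40% ± 1.23 (SD, n = 12) and 8.87% ± 2.71 (SD, n = 9), a difference of 2.78 points, with 6 of 9 above the PBS median (exact permutation test, adjusted p = 0.00794). Atp2b2 held 32.9% ± 2.83 (SD, n = 12) and 34.5% ± 3.65 (SD, n = 9), which did not pass (difference 1.45 points, exact permutation test, adjusted p = 0.339). The shares of a mouse fill the whole sum, so a lower share of Atp2b1 means higher shares elsewhere, and their tests are not independent. The level of Atp2b1 itself was not lower (log2 fold change 0.18, not called).

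The shifts of Atp2b1, Atp2b3 and Atp2b4 passed in each of the 21 tests that left out 1 mouse and within the SAMP8 name form, where they were -7.12, 3.02 and 4.12 points (exact permutation tests, adjusted p = 0.0272, 0.0255 and 0.0255). Without HsTX1[R14A] mouse 71 they were -5.80, 1.64 and 2.17 points (exact permutation tests, adjusted p = 0.0308, 0.0373 and 0.0308). Taken as shares of CPM with no scaling by length they were -6.40, 1.27 and 3.96 points (exact permutation tests, adjusted p = 0.00831, 0.00971 and 0.00831). With the length slope regressed out they were -0.74, 0.48 and 1.33 points and none passed (exact permutation tests, adjusted p = 0.496). The log2 ratio of Atp1b1 to Atp1b2 was 3.03 ± 0.77 (SD, n = 12) in PBS and 2.41 ± 0.69 (SD, n = 9) in HsTX1[R14A] mice and did not pass (difference -0.68, exact permutation test, adjusted p = 0.0788), although it did without HsTX1[R14A] mouse 93 (-0.80, adjusted p = 0.0362). The log2 ratio of Atp2a2 to the summed Atp2b genes was -0.73 ± 0.10 (SD, n = 12) and -0.64 ± 0.17 (SD, n = 9) and did not pass (difference 0.10, exact permutation test, adjusted p = 0.121).

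**Figure D4:**
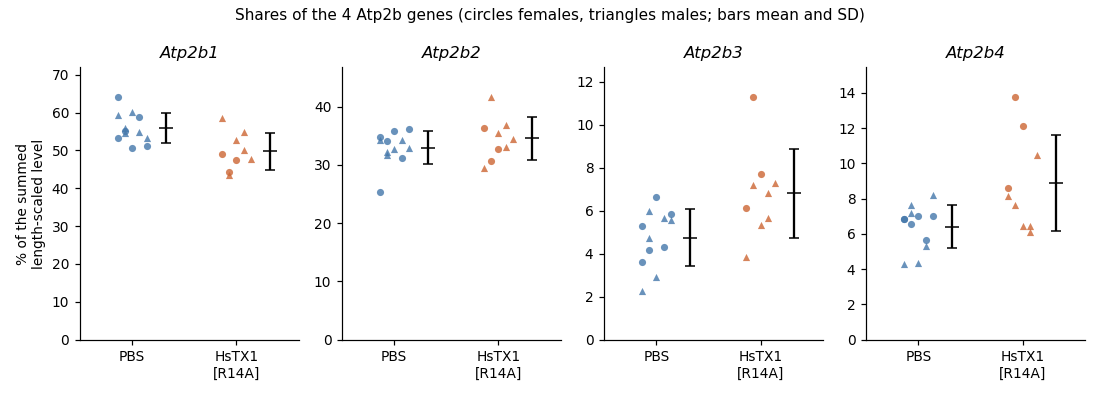
Share of each PMCA gene in the summed length-scaled level of the 4 Atp2b genes, in percent, 1 point per mouse, with PBS in blue, HsTX1[R14A] in orange and bars for the mean and SD. Atp2b1 falls from a mean of 55.9% to 49.8%, and Atp2b3 and Atp2b4 rise, with 2 HsTX1[R14A] females above 12% for Atp2b4.

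Sex was examined in the same model. None of the 7 pump genes passed between males and females, against 0.0552% of all genes tested (9 of 16303). The lowest unadjusted p-value was that of Atp2b4, which was lower in males by a log2 fold change of -0.46 ± 0.18 (SE; edgeR p = 0.0191, adjusted p = 0.446). In PBS mice Atp2b4 was at 124 ± 38.5 CPM (SD, n = 6) in females and 102 ± 33.2 CPM (SD, n = 6) in males, and in HsTX1[R14A] mice at 261 ± 15.8 CPM (SD, n = 3) and 160 ± 50.4 CPM (SD, n = 6). The treatment by sex interaction passed for none of the 7 genes and for 0% of all genes tested (edgeR, 0 of 16303, of which 270 were at an unadjusted p under 0.05, and 0 with limma/voom and with DESeq2), and that of Atp2b4 was -0.41 ± 0.37 (SE). Fitted in each sex alone, all 7 genes were higher in HsTX1[R14A] mice with log2 fold changes of 0.80 in females and 0.81 in males for Atp1b2, 0.96 and 0.81 for Atp2b3 and 1.07 and 0.66 for Atp2b4, and none passed (females, 9 mice, lowest adjusted p = 0.244; males, 12 mice, lowest adjusted p = 0.14).

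Levels of different genes were compared per kilobase of the longest transcript, in the 12 PBS mice. Neighbours were tested in the order of their means in these same mice, so a p-value near the threshold cannot decide the order. Atp1b1 stood highest at 496 ± 50.6 CPM per kilobase (SD, n = 12), followed by Atp2a2 at 90.6 ± 23.2, Atp2b1 at 82.4 ± 14.2, Atp1b2 at 68.2 ± 30.9, Atp2b2 at 49.8 ± 13.8, Atp2b4 at 9.64 ± 3.09 and Atp2b3 at 7.33 ± 3.17. The drops from Atp1b1 to Atp2a2 (2.49 on the log2 scale) and from Atp2b2 to Atp2b4 (2.38) held in 12 of 12 mice (exact sign-flip permutation tests, p = 0.000488, the smallest this design allows, adjusted over 6 neighbours p = 0.00146). Atp2b4 was above Atp2b3 by 0.47 in 11 of 12 mice (exact permutation, adjusted p = 0.00293). The middle genes stood close together, with log2 ratios of 0.11 for Atp2a2 over Atp2b1 (9 of 12 mice), 0.43 for Atp2b1 over Atp1b2 (8 of 12) and 0.34 for Atp1b2 over Atp2b2 (9 of 12), each just past the threshold (exact permutation, adjusted p = 0.0439). Their order depended on the length used, since Atp2b1 fell below Atp1b2 with the union of exons (-0.54) and Atp2a2 below Atp2b1 with the mean length of coding transcripts (-1.07). In the HsTX1[R14A] mice Atp2b1 and Atp1b2 did not differ beyond their spread (-0.19, exact permutation, adjusted p = 0.398).

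**Figure D5:**
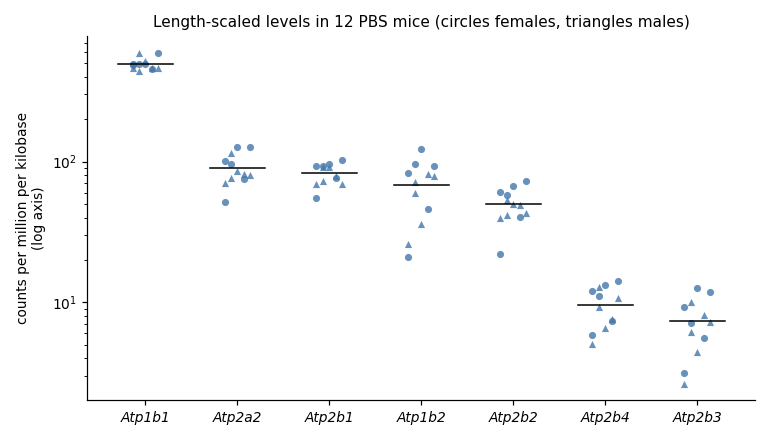
Level in CPM per kilobase of the longest transcript (log axis) of the 7 pump genes in 12 PBS mice, 1 point per mouse and lines at the means. Atp1b1 stands apart at a mean of 496, Atp2a2, Atp2b1, Atp1b2 and Atp2b2 share a middle band, and Atp2b4 and Atp2b3 lie lowest.

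Variation between mice followed another order than level. Among PBS mice the coefficient of variation of CPM was 10.2% for Atp1b1, 17.2% for Atp2b1, 25.6% for Atp2a2, 27.8% for Atp2b2, 32.1% for Atp2b4, 43.3% for Atp2b3 and 45.4% for Atp1b2. The highest PBS mouse exceeded the lowest by 1.35-fold for Atp1b1 and 5.80-fold for Atp1b2. PBS mouse 103 was lowest for Atp1b2, Atp2a2, Atp2b1 and Atp2b2, and PBS mouse 90 for Atp2b3 and Atp2b4. These 2 libraries also had the lowest length slopes, -0.38 and -0.34. HsTX1[R14A] mouse 93 was the lowest of its group for all pump genes except Atp2b1 and had the lowest slope of its group, -0.14.

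The genes with the most similar pattern were sought among 10455 genes, by Pearson r over 21 mice of log2 CPM after removal of sex and treatment. For Atp1b1 they were Gars, Cars and Mdh2 (r = 0.933, 0.909 and 0.855), for Atp1b2 Foxp4, Rgma and Atn1 (r = 0.991, 0.989 and 0.989), and for Atp2a2 Clstn1, Snx19 and 8430419L09Rik (r = 0.977, 0.975 and 0.966). For Atp2b1 they were Etv5, Il17ra and Dclk1 (r = 0.965, 0.959 and 0.949), for Atp2b2 Hivep2, Etl4 and Lpcat4 (r = 0.981, 0.976 and 0.971), for Atp2b3 Supt6, Spock2 and Lrrn2 (r = 0.981, 0.981 and 0.98) and for Atp2b4 Astn1, Tcf20 and Mboat7 (r = 0.959, 0.943 and 0.939). The points share libraries and their length trend, so these values are a description.

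Of 59 further genes of sodium and calcium handling that were tested, 14 (23.7%) were called higher and 6 (10.2%) lower in HsTX1[R14A] mice, against 15.5% and 16.1% of all genes, with a median log2 fold change of 0.06. Among the partners of the sodium pump, 2 of 3 alpha subunit genes were higher, 1 of 2 other subunit genes was lower and 1 of 5 FXYD genes, which encode small modulators of the pump, was lower. The beta subunit gene Atp1b3 was at 95.4 to 119 CPM in PBS and 81.5 to 102 CPM in HsTX1[R14A] mice, with all 9 below the PBS median (log2 fold change -0.19 ± 0.055 SE, edgeR adjusted p = 0.0201). Fxyd1, which encodes phospholemman, was at 22.9 to 53.2 and 17.8 to 27.3 CPM, again with all 9 below the PBS median (-0.57 ± 0.15 SE, edgeR adjusted p = 0.0172).

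Among the partners of SERCA, 1 of 4 genes (25%) was higher and 1 (25%) lower, against 15.5% and 16.1% of all genes. Each of these shares is a single call. Atp2a3, which encodes SERCA3, had medians of 2.92 and 3.79 CPM and its highest value, 16.2 CPM, in HsTX1[R14A] mouse 74 (log2 fold change 0.88 ± 0.33 SE, edgeR adjusted p = 0.0456), and without this mouse it did not pass (0.46, adjusted p = 0.137). Sln, encoding the SERCA inhibitor sarcolipin, was scarce at 0.308 to 1.95 and 0.186 to 0.711 CPM (-1.05 ± 0.32 SE, edgeR adjusted p = 0.0239). The Golgi calcium pump gene tested did not pass.

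Of the sodium/calcium exchanger genes, 5 of 8 (62.5%) were called higher and none lower, against 15.5% and 16.1% of all genes. This was the largest number of calls in a pathway list. The share was larger among the alpha subunit genes (66.7%). Slc8a3 had medians of 20.1 and 30.3 CPM (0.56 ± 0.15 SE, edgeR adjusted p = 0.0185) and Slc8a1 of 10.7 and 15.4 CPM (0.64 ± 0.19 SE, edgeR adjusted p = 0.0213), each with 8 of 9 HsTX1[R14A] mice above the PBS median. Of 5 genes for PMCA partners, 2 were lower and none was higher. Calm2, a calmodulin gene, had medians of 1596 and 1322 CPM (-0.34 ± 0.13 SE, edgeR adjusted p = 0.0448), and 7 of 9 HsTX1[R14A] mice were below the PBS median.

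For calcium release and store refilling 2 of 11 genes (18.2%) were higher, near the 15.5% of all genes. None was lower, against 16.1% of all genes. The 2 were the store sensor gene Stim1 (0.35 ± 0.10 SE, edgeR adjusted p = 0.0214) and the ryanodine receptor gene Ryr2 (0.57 ± 0.21 SE, edgeR adjusted p = 0.0482). For calcium-binding proteins of the endoplasmic reticulum 3 of 6 (50%) were higher and none lower, led by the chaperone genes Calr (0.30 ± 0.067 SE, edgeR adjusted p = 0.0151) and Hspa5 (0.37 ± 0.084 SE, edgeR adjusted p = 0.0151), each with 8 of 9 HsTX1[R14A] mice above the PBS median. Of 9 cytosolic calcium-binding proteins only Hpcal1 passed and was higher (11.1% of the list, 0.60 ± 0.18 SE, edgeR adjusted p = 0.0226). Of 5 genes of the mitochondrial uniporter complex only Micu3, a regulator of uptake, passed and was lower (20% of the list, -0.41 ± 0.087 SE, edgeR adjusted p = 0.0151). Both shares lie near those of all genes. In the 21 fits that left out 1 mouse, Ryr2 passed in 8, Calm2 and Atp2a3 in 7, Sln and Hpcal1 in 20 and the other 8 genes named here in all 21. With the length slope as covariate none of these 59 genes passed. Their log2 fold changes then differed in size, with Hspa5 at 0.37, Hpcal1 at 0.65, Calr at 0.21, Slc8a1 at 0.06 and Stim1 at 0.07.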

How the data were processed

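The authors extracted total RNA from whole brains and sequenced 1 library per mouse. Per the labels' processing notes the tools were STAR, Salmon and limma and the genome GRCm38 (mm10). The authors deposited estimated counts per gene, not normalized, for 16318 genes, of which 90.496% lie within 0.01 of a whole number. They were rounded to whole numbers here. Another 53 per-sample columns (37 of CPM, 16 of counts) were not used, nor were the authors' own fold changes and p-values. The library kit is named differently in the labels and in the methods, so strandedness is open.

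The main test was the quasi-likelihood test of edgeR 4.0.16 (R 4.3.3) after TMM scaling, on the 16303 genes that filterByExpr kept, modelling treatment and sex. Composition was tested over all 77616 labelings within sex. Lengths are from GENCODE for GRCm38. A prior count of 2 was added for log2 CPM. Alternatives used limma/voom, DESeq2, RLE scaling, other filters, other covariates and subsets of mice. On simulated data with 200 genes changed 2-fold, 185 were recovered with 5 false calls among 16294 genes. The simulated libraries held no length slope and no name form, so these counts do not describe false calls in the real comparison. All 7 pump genes differed by less than the simulated 2-fold. No pair of the 48 pairs of mice of 1 group and sex differed by sampling noise alone (lowest mean chi-square per gene 7.58).

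The 7 genes, the pathway and marker lists and the tests were chosen with earlier results of these data known. Named by rule were the 7 genes, in each pathway list up to 2 called genes per direction with the smallest p, and for each of the 7 the 3 most similar genes (mean log2 CPM 3 or above). Some genes that the rule selects are not reported here.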

Additional observations from a re-analysis of the deposited data

Results flagged for a closer look

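Among the HsTX1[R14A] mice, their males, the PBS females or the PBS males, 5 values stood apart from their neighbours by Dixon's test. The PBS group as a whole and the HsTX1[R14A] females were not tested. It was applied to 52 sets of values, and chance flags about 1 in 20. For Atp2a2, HsTX1[R14A] mouse 93 was at 386.2 CPM against 649 to 904.6 CPM in the other 8 mice of its group, and it was flagged again among the males. PBS mouse 102 was at 657.9 CPM of Atp2a2 against 399.9 to 486 CPM in the other PBS males. For Atp1b1, PBS mouse 104 was at 1529 CPM against 1169 to 1284 CPM in the other PBS females. Mice 102 and 104 are the PBS mice with the SAMP name form. The share of Atp2b4 in the 4 Atp2b genes was 5.668% in PBS mouse 73 against 6.543% to 7.021% in the other PBS females.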

How the results depend on the processing

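All 7 pump genes were higher in HsTX1[R14A] mice under every alternative except the length slope as covariate, where Atp1b2 (-0.12), Atp2b1 (-0.068) and Atp2b2 (-0.11) turned. The number called higher, 4, was 0 with the slope, in either name form alone, in females alone and in males alone, 2 without the sex term or with the name form as covariate, 1 (Atp2b4) with 1 surrogate variable, 5 (with Atp1b1) with DESeq2 or sample quality weights, 3 (Atp1b1, Atp2b3 and Atp2b4) with the length and GC trend removed, and 2 to 6 with 1 mouse left out. The log2 fold change of Atp2b2 was 0.04 and that of Atp2a2 0.25 with the trend removed, and that of Atp1b2 was 0.20, Atp2a2 0.18, Atp2b1 0.02, Atp2b2 0.06, Atp2b3 0.37 and Atp2b4 0.50 with the surrogate variable. Over all genes, 5144 calls became 0 with the slope and in the 4 subsets of mice, 2984 without the sex term, 1999 with the name form, 1104 with 1 surrogate variable, 2686 with the length and GC trend removed (61% of them higher, against 49.1%), and 2289 to 6614 with 1 mouse left out. DESeq2 called 26 genes by sex. Of the 59 pathway genes, 20 calls became 0 with the slope and in the subsets, 13 without the sex term, 10 with the name form or the trend removed, 5 with 1 surrogate variable, and 13 to 26 with 1 mouse left out. With the slope, Hspa5 (0.37) and Hpcal1 (0.65) lost the call but not the size. Calm2 (0.0296, trend removed), Ryr2 (-0.13, slope), Atp2a3 (-0.29) and Hpcal1 (-0.22, both in the SAMP form) turned. With the slope regressed out the shares of Atp2b1, Atp2b3 and Atp2b4 differed by -0.74, 0.48 and 1.33 points without passing, and Atp2b2 (-1.07) and the log2 ratio of Atp1b1 to Atp1b2 (0.15) turned. The Atp2b2 share also turned in the SAMP8 form (-0.0204), and the ratio ran from -0.80 to -0.56 with 1 mouse left out, passing without HsTX1[R14A] mouse 93. Atp2b1 over Atp1b2 turned with the union of exons (-0.54) and in HsTX1[R14A] mice (-0.19), and Atp2a2 over Atp2b1 with the mean coding length (-1.07). The relation to the slope moved for Atp1b1 to r = 0.16 in the SAMP8 form and for Atp2b1 to r = 0.478 without 2 libraries. The causes were not tested. The paper states that mice were randomized to treatment within cages. The sample labels do not give the cage, so no analysis by cage was possible. Spread between libraries, not depth, limits these values. With 1 library per mouse, it cannot be split into spread of mice and of library preparation.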
